A study of Mus musculus with 7 samples.

Results

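Expression of 10 genes of bile acid synthesis and its control was examined in regenerating mouse liver with and without the lymphotoxin beta receptor (LTBR). The genes were taken by symbol from the platform annotation and were represented by 13 of the 45281 probes on each array. They comprised 4 sterol hydroxylases (Cyp7a1, Cyp8b1, Cyp27a1 and Cyp7b1), 4 enzymes that finish and conjugate the molecule (Akr1d1, Amacr, Slc27a5 and Baat) and 2 nuclear receptors that restrain the pathway (Nr1h4 and Nr0b2). RNA of whole liver from C57BL/6 mice was taken 12 h after partial hepatectomy (PHx), an operation that removes part of the liver, and was hybridised to single-colour Illumina bead arrays. The KO group held 4 samples of LTBR KO mice and the WT group 3 samples of wild-type mice, all of which had undergone PHx. Neither the sex nor the age of the mice, nor the way the receptor was removed, is given in the labels. No unoperated liver was analysed here, so baseline differences and differences of regeneration cannot be told apart. Whether each sample is its own animal is not stated in the labels, and p-values therefore reflect the variation among samples, some of which may be technical.

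Bile acids are made from cholesterol in hepatocytes and are the main route by which the body disposes of it. In the classic pathway Cyp7a1, the rate-limiting cholesterol 7-alpha-hydroxylase, opens the sequence, and Cyp8b1, the sterol 12-alpha-hydroxylase, decides how much cholic acid is formed. In the alternative pathway Cyp27a1, a mitochondrial sterol 27-hydroxylase, and Cyp7b1, an oxysterol 7-alpha-hydroxylase, act first. The bile acid receptor FXR, encoded by Nr1h4, forms a heterodimer with RXR and induces Nr0b2, which encodes SHP, a repressor of the transcription of Cyp7a1 and Cyp8b1. Bile acid load on the remaining liver after PHx and this feedback loop are known to take part in liver regeneration.

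Promoters in RefSeq (GRCm38.p6) were found for 5 of the 10 genes, Cyp8b1, Cyp27a1, Akr1d1, Nr1h4 and Nr0b2. The 250 bases upstream of the start are shown for Cyp8b1, the gene with the widest spread in these livers, and for Nr0b2, the repressor that acts on it. Capitals mark the letters CAAAGTCCA, known as a motif of HNF4, in Cyp8b1 (chr9:121916306-121916555, minus strand) and the letters TCAAGG, the core of the motif of LRH-1, in Nr0b2 (chr4:133553126-133553375, plus strand).
Cyp8b1: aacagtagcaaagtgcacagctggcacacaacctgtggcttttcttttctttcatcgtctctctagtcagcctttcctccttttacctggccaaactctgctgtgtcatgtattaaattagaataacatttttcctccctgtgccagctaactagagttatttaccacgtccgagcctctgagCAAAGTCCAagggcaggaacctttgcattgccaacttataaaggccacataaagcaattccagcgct
Nr0b2: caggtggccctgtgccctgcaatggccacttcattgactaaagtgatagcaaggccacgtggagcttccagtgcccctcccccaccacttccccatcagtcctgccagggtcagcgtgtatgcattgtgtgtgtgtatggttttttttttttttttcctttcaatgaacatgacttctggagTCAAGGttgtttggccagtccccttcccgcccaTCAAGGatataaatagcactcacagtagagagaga
The HNF4 letters began at base 184 of the Cyp8b1 window and were absent from the other 4 windows. On either strand they occurred in 0.384% of the 32851 RefSeq promoter windows of this length. The LRH-1 letters began at bases 183 and 216 of the Nr0b2 window and also occurred once in the Akr1d1 window, on the minus strand. They occurred in 12.5% of all windows. The longer LRH-1 motif CAAGGTCA, which overlaps the nuclear receptor half-site AGGTCA, was in none of the 5 windows and in 1.33% of all. The half-site itself was in the Akr1d1 and Nr1h4 windows and in 14.02% of all. These matches describe letters in a window and are not measured binding. The Cyp27a1 and Nr1h4 windows lay inside the annotated span of their genes, and the Akr1d1 window crossed the outer end of its gene. The starts of these windows are thus not the outermost ones of the genes.

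The deposited intensities had been normalized between arrays, with a median of 91.1 on each of the 7. An intensity of 93.6 (4.99 on the log2 scale used below) was taken as the floor, the upper bound of background. A probe above it on at least 3 arrays was tested, which left 18771 probes, or 13190 genes and unnamed probes with the brightest probe standing for a gene. Ltbr itself lay between 6.63 and 7.28 in WT and between 5.61 and 6.23 in KO, with no overlap (log2 difference -1.04, standard error (SE) 0.20). It missed the threshold over all genes (limma, Benjamini-Hochberg adjusted p = 0.088), and the difference was -0.61 with no background correction. The arrays correlated at 0.967 to 0.987 within groups and 0.960 to 0.977 between them. Every KO sample was set apart from every WT sample on component 1 of a principal component analysis (31.1% of the variance). WT replicate 3 (-2.9) and KO replicate 3 (4.3) came closest to each other on it. These same samples stood farthest apart on the second principal component, which held 26.2% of the variance. The counts of calls, the medians of the pathway, hepatocyte and macrophage lists and the differences of the named genes were therefore also computed without each array in turn.

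Of the 10 genes, 8 were above the floor on all 7 arrays, through 11 probes. Cyp7a1 and Nr0b2, each with 1 probe, were not. The Cyp7a1 probe read 86.2, 91.0 and 82.1 in WT and 87.1, 91.5, 93.9 and 87.4 in KO. It exceeded the floor only in KO replicate 3, by less than 1 unit of intensity, so the rate-limiting hydroxylase gave no measurable level in either group. The Nr0b2 probe read 89.1, 86.7 and 83.8 in WT and 89.6, 88.5, 80.7 and 85.0 in KO, below the floor throughout. No fold is given for either gene. A dim probe bounds only its own signal. The probe of Fabp1, the abundant fatty acid binding protein of hepatocytes, was above the floor on 1 of the 7 arrays, and that of Fgfr4, the receptor through which FGF15 represses Cyp7a1, on 2.

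None of the 8 genes tested, at any of their 11 probes, passed an adjusted p under 0.05 in the comparison of KO with WT, in which 0.0639% of all probes and 0.0682% of all genes passed (limma, Benjamini-Hochberg adjustment). By unadjusted p under 0.05 there were 2 of the 11 probes, those of Cyp8b1 and Slc27a5, both lower in KO, where 7.34% of all probes were. The Cyp8b1 probe alone had every KO value below every WT value, which 6.53% of all probes had. The KO mean was below the WT mean at 8 of the 11 probes and 5 of the 8 genes, against 49.2% of all probes and 45.7% of all genes. The median log2 difference of the 8 genes was -0.19, and that of all 13190 features was 0.03. Between the highest and the lowest array the probes spanned 1.32-fold to 2.06-fold after background correction, apart from Cyp8b1 with 7.91-fold. Before that correction the Cyp8b1 intensities ran from 110.9, which is 1.19 times the floor, to 449.9.

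**Figure D1:**
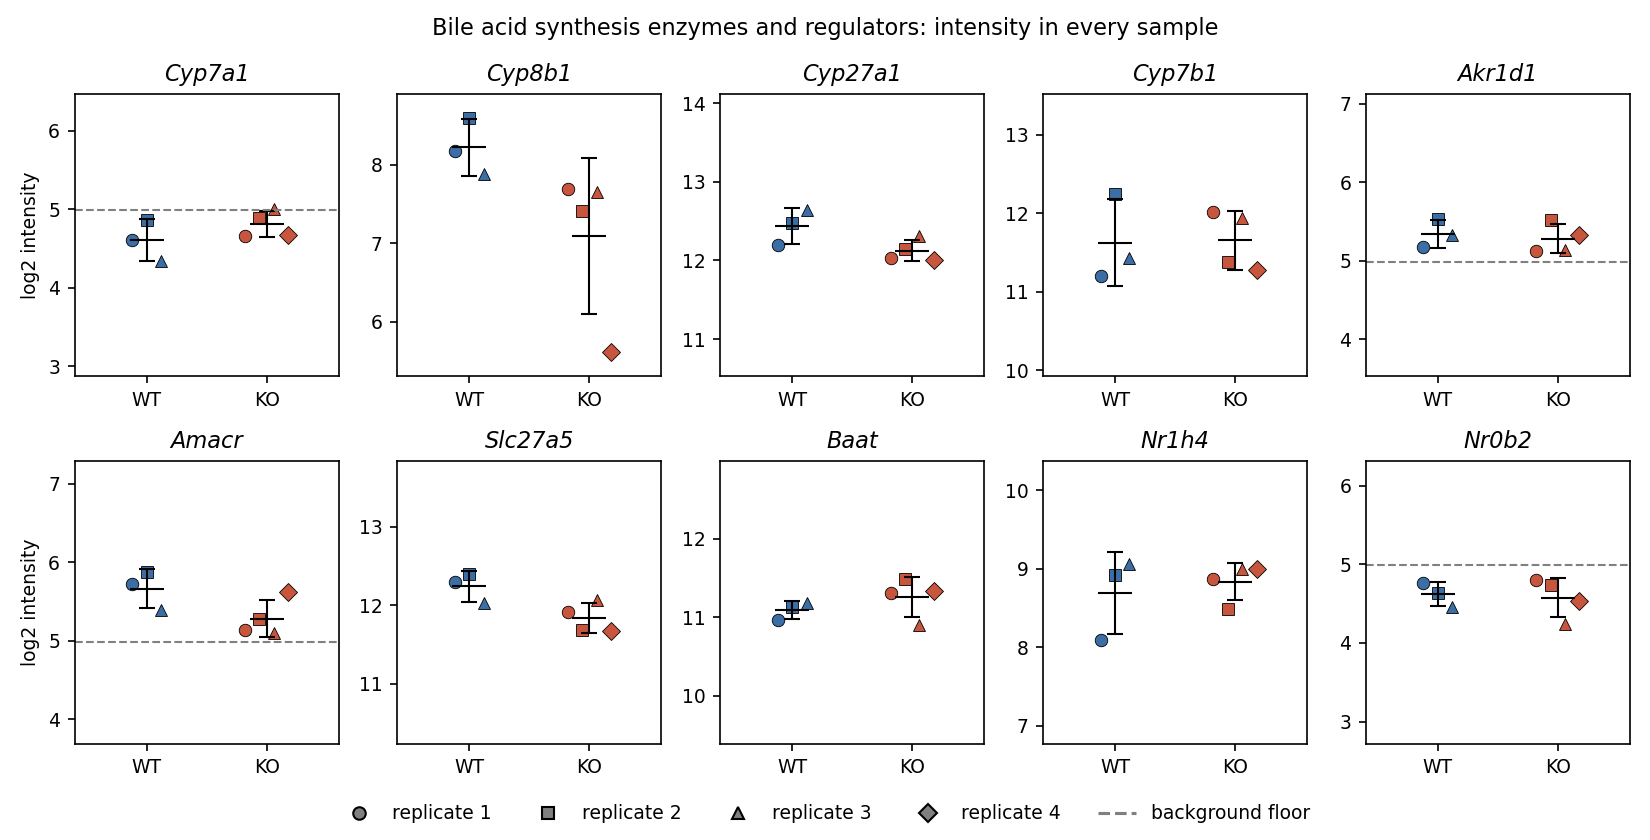
Log2 intensity after background correction (y axis) of the 10 genes in the 3 WT (blue) and 4 KO (red) samples, at the brightest probe of each gene; marker shapes are replicate numbers, black lines the mean and SD, the dashed line the floor of 4.99. Every panel spans the same number of log2 units. Nr0b2 lies below the floor, Cyp7a1 lies below it except in KO replicate 3, Akr1d1 and Amacr just above it, and KO replicate 4 lies far below the other KO samples for Cyp8b1.

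Cyp8b1 had the largest difference of the 10 genes. In log2 units the WT samples read 8.18, 8.60 and 7.89, and the KO samples read 7.69, 7.41, 7.65 and 5.62. All 4 KO samples were below all 3 WT samples, and KO replicate 4 lay more than a log2 unit under the other 3. The Cyp8b1 intensity in KO replicate 4 was only 1.19 times the floor, so the size of the difference depends in part on the background correction. The WT mean was 8.22 ± 0.36 (SD, n = 3), and the KO mean was 7.09 ± 0.99 (SD, n = 4). They differed by -1.13 (SE 0.42, 95% interval -2.05 to -0.21), or 2.19-fold, which did not pass over all probes (limma, adjusted p = 0.24). Among the 13190 features Cyp8b1 ranked 29 by the size of a negative difference and 1143 by p. Without KO replicate 4 the difference was -0.64 (SE 0.21, adjusted p = 0.22 over all genes), and the remaining KO values still lay below WT. Leaving out any other single array gave -1.33 to -0.94.

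KO replicate 4 also had the highest average of the Kupffer cell and macrophage markers, each taken as its deviation from its own mean. The mean deviation of the 11 tested markers of these resident phagocytes was 0.72 in KO replicate 4, 0.01 to 0.14 in the other KO samples and -0.56 to -0.03 in WT. The KO mean was higher for 10 of these 11 markers, and their median log2 difference was 0.47, or 0.19 without WT replicate 3. None passed over all genes, and those of smallest p were the scavenger receptor gene Marco (1.71, SE 0.35, adjusted p = 0.088) and Vsig4, a complement receptor gene (0.75, SE 0.24, adjusted p = 0.19). The 9 tested hepatocyte markers had a mean deviation of -0.02 in KO replicate 4. In KO replicates 1, 2 and 3 it was -0.15, 0.03 and -0.19, and in WT -0.11 to 0.26. The part of the macrophage marker shift in the level of Cyp8b1 was not tested. In whole liver, fewer cells of a type and less RNA per cell cannot be told apart.

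Cyp27a1 was measured by 3 probes, whose values over the 7 arrays correlated at 0.84 to 0.92. The brightest probe read 12.19, 12.48 and 12.65 (log2) in the WT samples and 12.03, 12.15, 12.31 and 12.01 in the KO samples. Among the KO samples, KO replicate 3 was above WT replicate 1, and the other 3 were below all WT samples. The difference at that probe was -0.31 (SE 0.17, 95% interval -0.68 to 0.05), with -0.34 (SE 0.18) and -0.20 (SE 0.17) at the others (limma, adjusted p = 0.44, 0.42 and 0.65). All 3 probes thus gave a lower KO mean, by 1.15-fold to 1.26-fold, within the spread between samples.

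Cyp7b1, the second enzyme of the alternative pathway, had nearly equal group means. The WT samples had log2 intensities of 11.20, 12.25 and 11.43, and the KO samples had 12.02, 11.38, 11.94 and 11.28. WT replicate 2 was the highest of the 7 samples and WT replicate 1 the lowest, so the WT samples spanned the KO samples. The difference was 0.03 (SE 0.27, 95% interval -0.55 to 0.61, adjusted p = 0.97, limma). Its sign depended on the samples used, from -0.18 without WT replicate 1 to 0.34 without WT replicate 2.

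**Figure D2:**
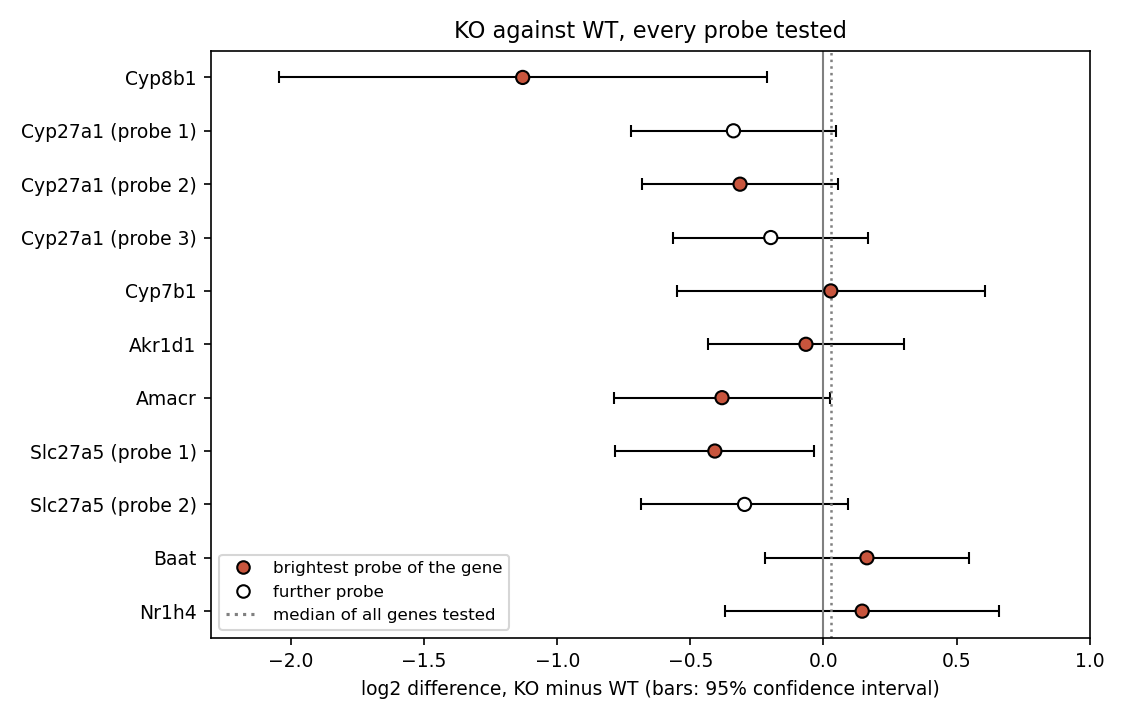
Log2 difference of KO minus WT (x axis) with its 95% confidence interval for each of the 11 probes tested (y axis); filled points are the brightest probe of a gene, open points further probes, and the dotted line is the median of all genes, 0.03. Intervals of Cyp8b1 and of the first Slc27a5 probe lie below 0, and all others include 0.

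Among the finishing enzymes, Slc27a5, the bile acid CoA ligase that prepares bile acids for conjugation, had the smallest p. Its brightest probe read 12.30, 12.40 and 12.03 (log2) in the WT samples, against 11.91, 11.69, 12.07 and 11.67 in the KO samples. The groups overlapped through KO replicate 3, which was above WT replicate 3. The difference was -0.41 (SE 0.17, 95% interval -0.78 to -0.03), 1.33-fold (limma, adjusted p = 0.31), and -0.30 (SE 0.18, adjusted p = 0.50) at the second probe. The probes correlated at 0.86 over the 7 arrays. With each array left out in turn the difference at the brightest probe ran from -0.52 to -0.33.

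Baat, which joins the activated bile acid to taurine or glycine, pointed the other way. On the log2 scale the WT samples were at 10.97, 11.12 and 11.18, and the KO samples at 11.31, 11.48, 10.90 and 11.33. KO replicate 3 was the lowest sample of all, and the other 3 KO samples were above every WT sample. The difference was 0.16 (SE 0.17, 95% interval -0.22 to 0.55, adjusted p = 0.74, limma), 0.28 without KO replicate 3, 0.088 without KO replicate 2 and 0.10 without WT replicate 1. Over the 7 arrays Baat and Slc27a5, consecutive steps of conjugation, correlated at -0.75, and at -0.74 after the group means were removed. These are descriptions over arrays that share one normalization.

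Amacr, a racemase that sets the side chain for peroxisomal shortening, and Akr1d1, the steroid 5-beta-reductase of the ring, were dim. Amacr intensities ran from 1.03 to 1.29 times the floor and those of Akr1d1 from 1.04 to 1.16 times. Amacr had log2 values of 5.72, 5.88 and 5.39 in WT and 5.14, 5.28, 5.10 and 5.62 in KO. Of the KO samples, only KO replicate 4 was above the lowest WT sample. The difference was -0.38 (SE 0.19, 95% interval -0.79 to 0.03, adjusted p = 0.39, limma). It was -0.16 with no background correction and -0.22 with an offset of 50 in that correction. Akr1d1 had 5.18, 5.53 and 5.33 in WT and 5.13, 5.53, 5.14 and 5.33 in KO, and differed by -0.07 (SE 0.17, 95% interval -0.43 to 0.30, adjusted p = 0.91, limma). So close to the floor, the size of a difference depends on the background correction, and both intervals include 0.

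Nr1h4, the FXR gene, was above the floor on every array, at 3.57 to 6.35 times the floor. The WT samples were at 8.09, 8.93 and 9.06 in log2 units, and the KO samples at 8.87, 8.49, 8.99 and 8.99. WT replicate 1 was the lowest sample and WT replicate 3 the highest. The difference was 0.15 (SE 0.24, 95% interval -0.37 to 0.66, adjusted p = 0.84, limma). It was -0.16 without WT replicate 1, the only array whose removal turned its sign.

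**Figure D3:**
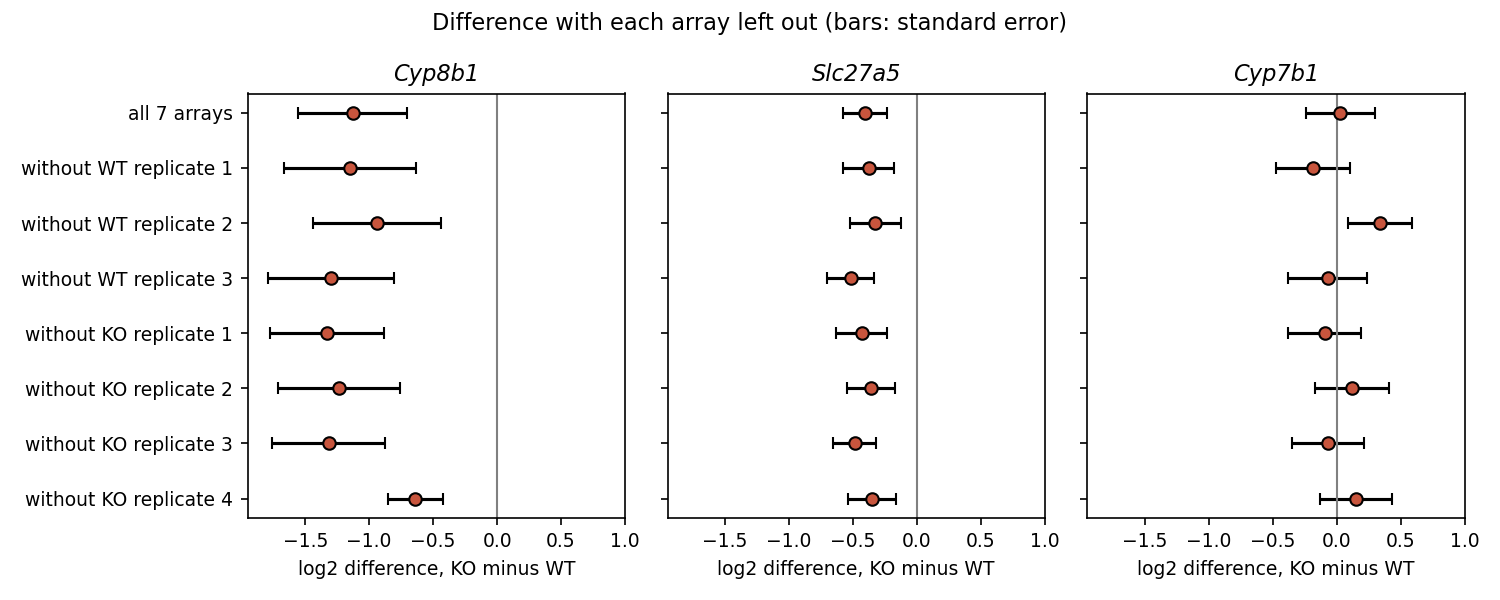
Log2 difference of KO minus WT (x axis) with its standard error for Cyp8b1, Slc27a5 and Cyp7b1, with all 7 arrays and with each array left out in turn (y axis), from the fit over all genes. Cyp8b1 stays below 0 and moves to -0.64 without KO replicate 4, Slc27a5 stays between -0.52 and -0.33, and Cyp7b1 crosses 0.

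The 8 genes did not vary as one block over the arrays. Cyp8b1 and Slc27a5 had the highest correlation of any pair with the group means left in (Pearson r = 0.81 over 7 arrays). After these were removed it was 0.66, below Cyp7b1 with Slc27a5 (0.72), Cyp27a1 with Nr1h4 (0.68) and Akr1d1 with Baat (0.67). With and without the group means, Cyp8b1 and Cyp27a1 had 0.59 and 0.25. The correlation of Nr1h4 with Cyp8b1, which its product restrains through SHP, was -0.26. Genes most like the 3 members of widest range were sought among 10381 other named genes. For Cyp8b1 they were Slc25a33 (r = 0.98), Nrp (0.97) and Mga (0.96), for Cyp7b1 Abl1 (0.98), Ctu1 (0.97) and Man1c1 (0.95), and for Nr1h4 Pacs1 (0.99), Faf2 (0.97) and Sirt4 (0.96). These are the highest of many values over few arrays, and 19, 9 and 46 genes exceeded 0.9 for Cyp8b1, Cyp7b1 and Nr1h4. KO replicate 4 lay farthest from the Cyp8b1 mean (5.62, against 7.41 to 8.60 elsewhere). It thus weighs most in the Cyp8b1 correlations, which were not computed without it.

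The other enzymes and carriers of the pathway also gave no call. Of 17 listed, 15 were tested, 11 lay below 0 and 4 above, and the median log2 difference was -0.13. By unadjusted p under 0.05 there were 2 lower and 1 higher, where 6.52% of all genes were lower and 8.25% higher. Sult2a8, a liver sulfotransferase that acts on bile acids in mice, read 10.67, 11.28 and 10.47 in WT against 9.96, 10.41, 10.18 and 10.06 in KO, without overlap (-0.65, SE 0.21, adjusted p = 0.19, and -0.42 without WT replicate 2). The lipid transfer genes Stard4 and Stard5 differed by -0.53 (SE 0.20, adjusted p = 0.26) and 0.56 (SE 0.24, adjusted p = 0.31). Stard5 read 7.52, 8.12 and 8.20 in WT and 8.48, 8.24, 8.23 and 9.08 in KO, without overlap, and 7.62% of all genes had every KO value above every WT value. Without WT replicate 1 its difference was 0.35, and that of Stard4 was -0.31 without WT replicate 3. Cyp2c70, which makes the muricholic acids of mice, differed by -0.16 (SE 0.18), and Hsd3b7, which follows the 7-alpha-hydroxylases, by 0.15 (SE 0.22), or -0.10 without WT replicate 1.

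Of 17 further regulators, 12 were tested and none passed, with 8 below 0, 4 above and a median of -0.17. Rxra, the partner of FXR, had the smallest p. In log2 units it read 7.51, 7.73 and 7.42 in the WT samples and 6.95, 6.88, 7.13 and 7.05 in the KO samples. Every KO sample was below every WT sample, and the difference was -0.55 (SE 0.16, 95% interval -0.89 to -0.21, adjusted p = 0.15, limma). Non-overlap with KO below WT was seen in 5.48% of all genes. Hnf4a, which activates Cyp7a1 and Cyp8b1, differed by -0.35 (SE 0.20), Nr5a2, which encodes LRH-1, by -0.33 (SE 0.23), and Klb, the co-receptor for FGF15, by -0.29 (SE 0.22), none past the threshold.

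Among transporter genes induced by FXR, the bile salt export pump Abcb11 lay at 9.37, 10.12 and 9.91 (log2) in the WT samples and at 9.05, 9.12, 8.91 and 9.15 in the KO samples. The groups did not overlap (-0.74, SE 0.19, adjusted p = 0.13, limma). The phospholipid flippase gene Abcb4 (0.39, SE 0.20) and Slc51b, a chain of the basolateral bile acid exporter (0.36, SE 0.28), had higher KO means, without passing. Slc51a was above the floor on 1 array. The 3 tested transporter genes thus did not share a direction.

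**Figure D4:**
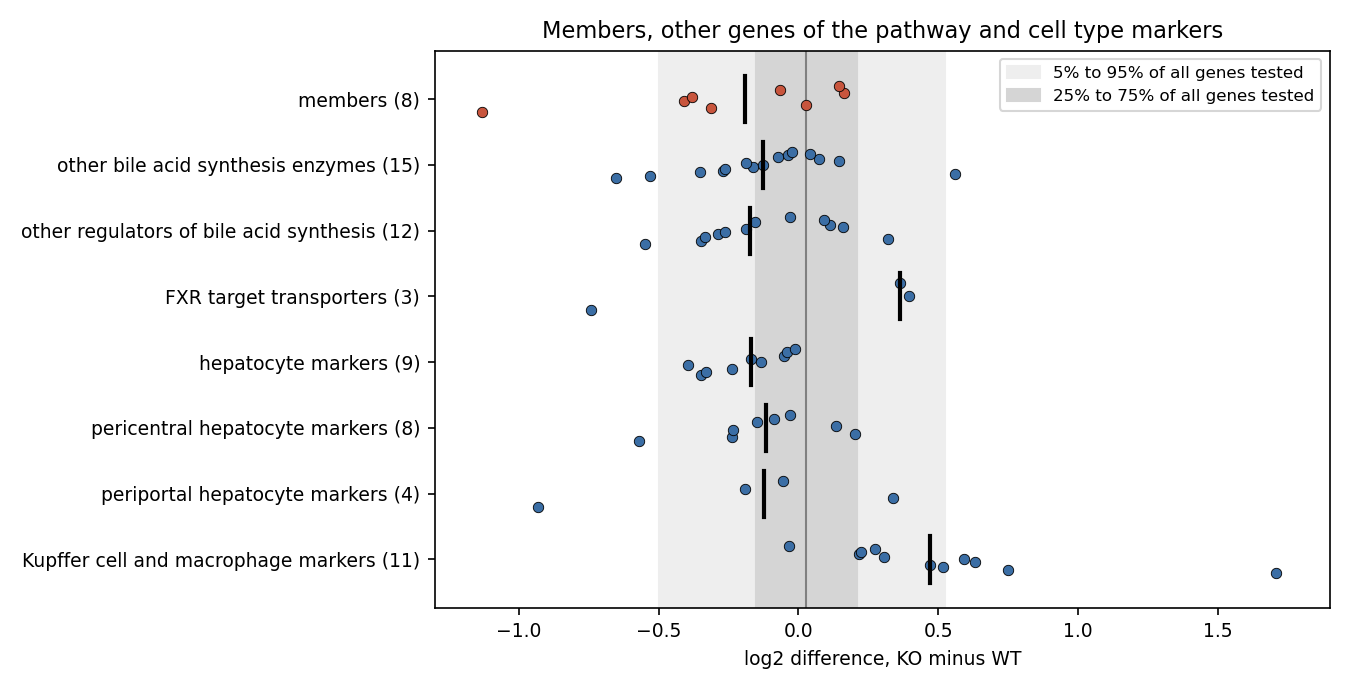
Log2 difference of KO minus WT (x axis) for the 8 tested members, other genes of the pathway and marker lists (y axis, number of tested genes in brackets); each point is a gene, black bars are list medians, and grey bands hold 25% to 75% and 5% to 95% of all genes. The members' median of -0.19 lies next to the -0.17 of the hepatocyte markers, and the macrophage markers' median of 0.47 lies above 0.

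Hepatocyte markers, like most of these genes, had lower KO means. All 9 tested of 11 listed had a KO mean below the WT mean, with a median of -0.17 and none past the threshold. Alb (-0.39, SE 0.41), Hnf4a (-0.35) and Fgb (-0.33, above the floor on 4 arrays) differed most. Apoa1, Apob and Ttr differed least (-0.05, -0.04 and -0.01). The Alb probe had means of only 7.13 in WT and 6.73 in KO, against 14.71 and 14.66 for Apoa1. Alb and Fgb are both part of the scaling below, which was not computed without them. The mean deviation of the list ran from -0.11 to 0.26 in WT and from -0.19 to 0.03 in KO. Relative to 8 of these markers (without Hnf4a), a scaling chosen after seeing the data, the median of the 8 pathway genes was -0.02 instead of -0.19, Cyp8b1 differed by -0.96 (SE 0.39, adjusted p = 0.26), Slc27a5 by -0.24, Amacr by -0.21, Cyp27a1 by -0.14 and Baat by 0.33. Markers of pericentral hepatocytes, the zone where bile acid synthesis is concentrated, had 6 of 8 below 0 (median -0.12, or 0.018 without WT replicate 2), with Cyp1a2 at -0.57 (SE 0.26). Periportal markers had 3 of 4 below 0 (median -0.12), with the histidine ammonia lyase gene Hal at -0.93 (SE 0.34). No marker of either zone passed.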

How the data were processed

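Single-colour bead array data of 7 whole-liver samples (3 WT, 4 KO; groups and replicate numbers from the titles) were used. The deposited table held 1 linear intensity for each probe and sample, normalized between arrays by the authors, since all columns had the same quantiles. The submitters' processing notes name Partek; the steps are not given in the sources used here. A scanner table with 14 columns that no label ties to a sample was not used. Background was corrected with normexp (saddle-point method, offset 16) in limma 3.58.1 under R 4.3.3, followed by log2. For the floor, a normal distribution was centred on the commonest intensity, with its spread from the values below that, and its 0.95 quantile was used. Symbols came from the platform annotation (34885 probes with 1 symbol), of which RefSeq matched 34807.

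The comparison of KO with WT used lmFit and eBayes, two-sided, over 18771 probes (values of the 10 genes) and over 13190 genes and unnamed probes (values of other genes, ranks and alternatives). Differences are log2, KO minus WT. The number of arrays limits the precision. The procedure was tested on simulated data. The genes and lists were chosen with earlier results of these data known. Named were all 10 genes, up to 6 per pathway list with an unadjusted p under 0.05, 8 fixed pathway genes, the 2 of smallest p per marker list (not all are printed), Ltbr, and the 3 most correlated genes for each of 3 members. Slc51a, Stard4, Stard5 and Fabp1 were printed at their values. Alternatives changed the background correction, normalization, filter, floor, probe choice, prior, array weights, replicate block and scaling, and left out each array.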

Additional observations from a re-analysis of the deposited data

Results flagged for a closer look

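Each of the 13 probes of the 10 genes was checked in the 4 KO samples for a sample far from the others, which chance alone gives in about 1 in 20 groups. There were 2 such probes. Cyp8b1 in KO replicate 4 had a log2 intensity of 5.62, close to the floor, against 7.41 to 7.69 in the other KO samples. At 1 further probe of Cyp27a1, KO replicate 3 had 11.73, against 11.26 to 11.30 in the other KO samples, while the brightest probe of that gene had no such gap.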

How the results depend on the processing

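None of the 8 tested genes passed an adjusted p under 0.05 under any of the 18 alternatives, and the lowest adjusted p was 0.068, for Slc27a5 with array weights. Cyp7a1 and Nr0b2 were fitted only with no filter and did not pass (adjusted p = 0.79 and 0.97). Cyp8b1, Cyp27a1, Slc27a5 and Amacr stayed below 0 and Baat above 0 in all 18 alternatives, but several of these could not move a difference. Quantile normalization met arrays that already shared their quantiles, and the filters, the floor and the prior leave a probe's log2 values unchanged. For a gene with 1 probe, the mean of the probes is that probe. Cyp7b1 turned to -0.14 with array weights and ranged from -0.18 to 0.34 with 1 array left out. Akr1d1 turned to 0.11 relative to the hepatocyte markers and ranged from -0.15 to 0.027 with 1 array left out, and Nr1h4 from -0.16 to 0.33. Of the other named genes, computed in this way after seeing the data, Cyp2c70 turned to 0.0092 relative to the hepatocyte markers and Hsd3b7 ranged from -0.10 to 0.35 with 1 array left out. The members' median was -0.019 relative to the hepatocyte markers, and their number below 0 was 4 to 7 with 1 array left out. The count of genes called, 9, was 4 with no background correction, 19 with no filter, 1 with the filter on all arrays, 3 with the mean of the probes, 2 with the robust prior, 963 with array weights, and 2 to 3 with 1 array left out. The count of probes called, 12, was 59 with no filter, 2 with the filter on all arrays, 1055 with array weights, 22 with the floor at the median intensity (chosen after seeing the data), and 3 to 25 with 1 array left out. The cause was not tested. With array weights, Marco (adjusted p = 0.015), Elovl3 (adjusted p = 0.031), Hal (adjusted p = 0.049), Cyp1a2 (adjusted p = 0.04995), Abcb11 (-0.83, adjusted p = 0.021), Rxra (-0.65, adjusted p = 0.023), Sult2a8 (-0.90, adjusted p = 0.024) and Ltbr (-1.07, adjusted p = 0.014) passed; over all alternatives the highest adjusted p of the last 4 were 0.46, 0.51, 0.59 and 0.38. The labels do not say what same-numbered samples share. Their deviations from the group means correlated at -0.20, -0.04 and -0.30, which cannot decide it with so few arrays per group. With the replicate block, 3 genes and 5 probes were called. KO replicate 4 has no partner in it and so adds nothing to a difference. Cyp8b1 thus differed by -0.64, the same value as without that array.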

Other observations

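Transcription of Cyp7a1 and other genes of the pathway follows the circadian clock, and Cyp7b1 is male-biased in mouse liver. Of 15 clock genes 9 were tested, 5 below and 4 above 0, with a median log2 difference of -0.02. None passed over all genes. Ciart, a repressor of the clock, differed by -1.03 (SE 0.38, adjusted p = 0.24, limma) and Clock by 0.48 (SE 0.20, adjusted p = 0.30). Male-biased liver genes had 6 of 9 below 0 (median -0.12), with Elovl3, a fatty acid elongase gene, at -0.73 (SE 0.25, adjusted p = 0.22). Of 11 female-biased genes only 4 were tested, all with a difference below 0 (median -0.28), and none of either list passed. Cyp2a4 and Cyp2b9 were above the floor on only 3 arrays each and Cux2 on 4. For Cyp2a4, WT replicate 1 lay far above every other sample. The shared direction of the female-biased genes thus rests largely on dim probes.

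Other marker lists were small or mixed, and none of their genes passed. In the erythroid list, Alas2 had every KO value below every WT value (-0.78, SE 0.16, adjusted p = 0.088, limma). Slc4a1, above the floor on 5 arrays, had the reverse (0.38, SE 0.17, adjusted p = 0.32, limma). Of all genes, 5.48% and 7.62% were apart in these directions. Sinusoidal endothelium had 4 of 6 tested above 0 (median 0.08), stellate cells and fibroblasts 3 of 8 (median -0.07), neutrophils 3 of 3 (median 0.13), lymphocytes 2 of 2 (median 0.22), cholangiocytes 1 of 2 (median 0.11), erythroid cells 1 of 3 (median -0.21) and pancreas 1 of 2 (median -0.11). Of 5 adipocyte markers only Cidec, which hepatocytes also express, was tested (1.11, SE 0.46, and 0.38 without WT replicate 1). Of the sex chromosome transcripts 4 of 5 were tested, all 4 with a higher KO mean (median 0.20). The Y-linked genes Eif2s3y (8.48 to 9.90 in log2 units), Uty and Kdm5d were above the floor on all 7 arrays. Xist, the X-linked transcript of females, was above it on 3 (4.84 to 5.31). Y-linked transcripts were thus measured in every sample.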
